A study of Mus musculus with 6 samples.

Results

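The endogenous *Dmpk* locus of the mouse was followed through its 3 protein-coding genes, *Dmwd*, *Dmpk* and *Six5*, which were chosen by their names in the gene tables. They make up 3 of the 55421 genes listed, and all 3 were among the 19005 genes with enough counts to be tested. The RNA came from C2C12 cells, an established mouse myoblast line that fuses into myotubes when serum is reduced. The normal group (C2C12 GFP-CUG5) had been stably transfected with a plasmid carrying 5 CTG repeats behind the GFP coding region, and the DM1 group (C2C12 GFP-CUG200) with the same kind of plasmid carrying 200. Both groups had been selected with G418, and both were sampled at differentiation day 4, with 3 RNA-seq libraries each.

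The expanded repeat in this model sits in a transgene, so the mouse genes described here were not altered by design. The locus itself was not genotyped in these data. The study calls the libraries biological replicates but does not say whether they came from separate transfections, so the tests below measure the spread between these libraries. Total counts ran from 61707889 to 80957325 per library. In bulk RNA, fewer cells of a type and less RNA per cell cannot be told apart.

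In people, myotonic dystrophy type 1 (DM1) is caused by an expanded CTG repeat in the 3′ untranslated region of *DMPK*. The repeat lies close to the start of *SIX5*, and *DMWD* lies on the other side, so the levels of all 3 genes have long been of interest in the disease. *Dmpk* encodes a serine/threonine kinase of the family that includes the MRCK and ROCK kinases and is most abundant in muscle. *Six5* encodes a homeodomain transcription factor of the sine oculis homeobox family, whose members act with EYA coactivators in myogenesis, and *Dmwd* encodes a WD-repeat protein.

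On mouse chromosome 7 (GRCm38), the 3 genes lie head to tail on the plus strand within 22323 bases. *Dmwd* (ENSMUSG00000030410) spans chr7:19076227-19082776, *Dmpk* (ENSMUSG00000030409) spans chr7:19083849-19093821, and *Six5* (ENSMUSG00000040841) spans chr7:19094594-19098549. The gap between *Dmwd* and *Dmpk* is 1072 bases, and the gap between *Dmpk* and *Six5* is 772 bases. In the GENCODE M21 annotation, none of the 3 shares exonic bases with another gene.

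The promoter sequences are shown because the 3 genes, although adjacent, were present at very different levels. Each is the RefSeq stretch (GRCm38.p6, plus strand) from 250 to 11 bases before the start that RefSeq gives, 240 bases in all, at chr7:19075950-19076189 for *Dmwd*, chr7:19083608-19083847 for *Dmpk* and chr7:19094294-19094533 for *Six5*. The RefSeq starts differ by some bases from the gene starts above, and the distances below are counted from the RefSeq starts. Capitals mark matches, on either strand, to CANNTG (the E-box bound by myogenic bHLH factors) and CCAAT (read as ATTGG on the other strand).
*Dmwd*: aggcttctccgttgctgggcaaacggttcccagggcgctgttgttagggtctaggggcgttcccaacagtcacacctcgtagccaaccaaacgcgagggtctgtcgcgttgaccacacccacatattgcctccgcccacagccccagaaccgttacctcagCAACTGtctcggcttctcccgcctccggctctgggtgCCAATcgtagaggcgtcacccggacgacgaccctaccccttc
*Dmpk*: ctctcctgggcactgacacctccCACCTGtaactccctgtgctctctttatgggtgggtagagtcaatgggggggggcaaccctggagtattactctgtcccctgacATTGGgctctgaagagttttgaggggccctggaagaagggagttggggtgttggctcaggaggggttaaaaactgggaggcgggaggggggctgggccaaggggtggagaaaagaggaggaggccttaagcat
*Six5*: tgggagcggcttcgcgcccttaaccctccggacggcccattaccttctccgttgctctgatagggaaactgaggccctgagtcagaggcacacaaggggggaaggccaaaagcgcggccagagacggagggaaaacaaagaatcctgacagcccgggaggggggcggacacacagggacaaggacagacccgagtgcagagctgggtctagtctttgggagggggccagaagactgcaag

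The *Dmpk* promoter held 1 CANNTG match, CACCTG, from 227 to 222 bases before the start, and 1 CCAAT match from 143 to 139. In the *Dmwd* promoter, CANNTG was matched by CAACTG from 89 to 84 bases before the start and CCAAT from 52 to 48. Neither motif was present in the *Six5* stretch. The letters CAGCTG, which are a form of CANNTG, and TCAGGTT, the MEF3 motif bound by sine oculis homeobox proteins, were in none of the 3. Among 32851 promoters of the same length, 65.01% held CANNTG, 33.04% CCAAT, 12.41% CAGCTG and 3.37% TCAGGTT. GC content was 62.08% for *Dmwd*, 58.33% for *Dmpk* and 61.67% for *Six5*, against a median of 52.08%.

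CTG runs of the mouse genes were read from the GENCODE M21 transcripts, since the repeat defines the human disease. The longest uninterrupted run was 3 units in *Dmpk*, where 6 of 18 annotated transcripts held one, and 2 units in *Dmwd* and *Six5*. The *Dmpk* runs lay at 2 sites, printed with the run in capitals within 30 bases of transcript. The first, in 2 transcripts with no coding region annotated, is at chr7:19089098-19089127, and the second, annotated as coding sequence and held by 4 transcripts, is at chr7:19092488-19092517.
*Dmpk*, first site: gttaggctttCTGCTGCTGcgatgaaccct
*Dmpk*, second site: gcctctcgccCTGCTGCTGggctccgatcg

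*Dmpk*, the kinase gene, was strongly expressed in all 6 libraries and did not differ detectably between the groups. Its level was 309, 223 and 225 CPM (counts scaled to the library total, corrected by TMM) in normal libraries 1 to 3, and 218, 243 and 272 CPM in DM1 libraries 1 to 3. The ranges overlapped, with the highest value in a normal library and the lowest in a DM1 library. The group means were 252.6 ± 49.0 CPM for the normal libraries (SD, n = 3) and 244 ± 27.1 CPM for the DM1 libraries. The log2 fold change (DM1 against normal) was −0.05 (SE 0.144, adjusted p = 0.862, edgeR quasi-likelihood test with Benjamini-Hochberg adjustment over all genes tested). The 95% confidence interval ran from −0.38 to 0.28, so a change between 0.771-fold and 1.21-fold was within reach of these data. The sign was not stable, since the log2 fold change was 0.12 without normal library 1 (adjusted p = 0.582) and 0.041 without DM1 library 1 (adjusted p = 0.902).

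*Six5* was the least abundant of the 3. It stood at 8.08, 8.75 and 6.54 CPM in the normal libraries and at 8.46, 8.13 and 12.2 CPM in the DM1 libraries, from 457 to 812 counts. DM1 library 3 stood above all others, while the other 2 DM1 libraries lay between normal libraries. The means were 7.79 ± 1.13 CPM in the normal group and 9.60 ± 2.27 CPM in the DM1 group. The log2 fold change was 0.30 (SE 0.189, 95% confidence interval −0.13 to 0.73, adjusted p = 0.326 by edgeR), a range from 0.915-fold to 1.66-fold. It was 0.09 without DM1 library 3 (adjusted p = 0.762), so most of the estimate came from that library. On log2(TPM + 1) and log2(TPM + 0.1) with limma it was 0.14 and 0.16.

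*Dmwd* had the narrowest spread. Its level was 42.6, 40.4 and 42.9 CPM in the normal libraries and 40.5, 42.9 and 50.95 CPM in the DM1 libraries. All but DM1 library 3 lay close together, and the groups overlapped. The means were 41.95 ± 1.38 CPM and 44.8 ± 5.48 CPM, and the log2 fold change was 0.09 (SE 0.102, 95% confidence interval −0.14 to 0.33, adjusted p = 0.595 by edgeR). That interval corresponds to 0.909-fold to 1.25-fold. Without DM1 library 3 the estimate was −0.011 (adjusted p = 0.951).

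**Figure D1:**
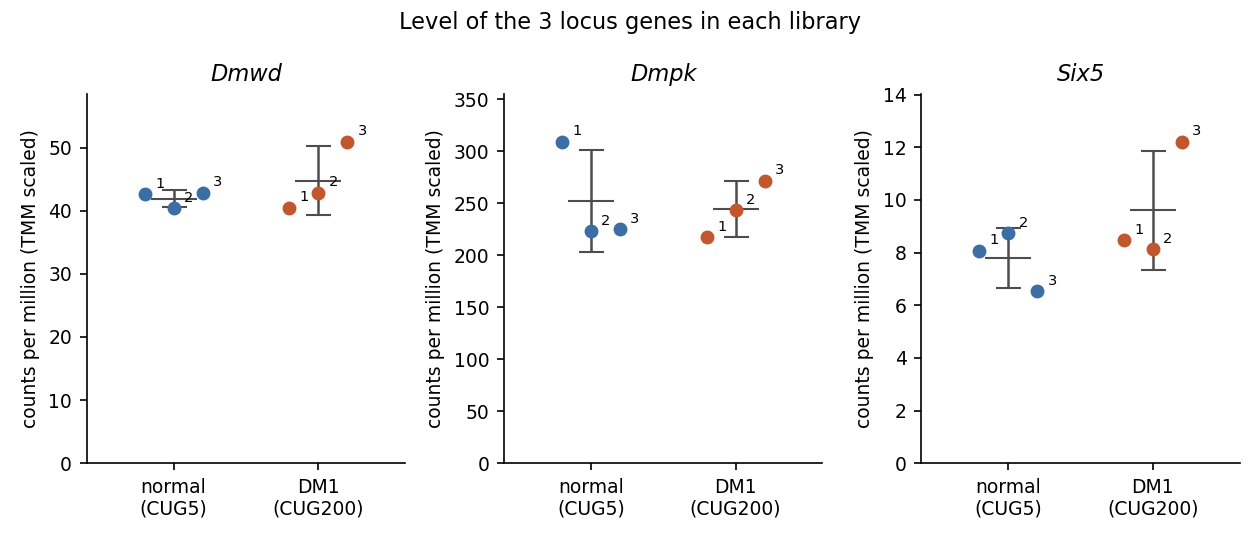
Level of *Dmwd*, *Dmpk* and *Six5* in CPM (linear axes from 0), 1 point per library with its replicate number, by group. The horizontal line is the mean and the bar is ± 1 SD (n = 3). The groups overlap in all 3 panels, and DM1 library 3 is the highest of its group in each.

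In sum, 0 of the 3 genes were called by edgeR at an adjusted p under 0.05, 0 at an unadjusted p under 0.05, and 0 by DESeq2. Of all genes tested, 15.9% were called, 7.13% as higher and 8.73% as lower in the DM1 group, and 2.18% also passed an absolute log2 fold change of 1. The groups overlapped for all 3 genes, whereas 37.2% of all genes had groups that did not overlap. With 3 genes, these shares and the counts cannot be set against each other closely.

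Library composition was read from the share of mitochondrial counts. Normal library 1 and DM1 library 3, the libraries with the highest *Dmpk* level, also had the lowest shares of mitochondrial counts, 9.04% and 8.90%. In normal libraries 2 and 3 that share was 12.3% and 12.6%, at *Dmpk* levels of 223 and 225 CPM. In DM1 libraries 1 and 2 it was 13.5% and 13.4%, at 218 and 243 CPM. Share and level followed no common order among these 4, so the relation rests on the 2 low-share libraries. When both low-share libraries were left out, a comparison chosen after the data had been seen, the log2 fold change was 0.040 for *Dmpk*, 0.12 for *Six5* and 0.0026 for *Dmwd* (edgeR adjusted p = 0.832, 0.721 and 0.992). The part of library composition in the levels was not tested further.

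Levels can be compared between genes only per length, for which the deposited TPM was used. *Dmpk* was at 315, 238 and 235 TPM in the normal libraries and 177, 210 and 275 TPM in the DM1 libraries. *Dmwd* was at 34.0, 29.5 and 30.3 TPM, and then at 25.0, 29.2 and 38.8 TPM. *Six5* was at 4.79, 4.77 and 3.51 TPM, and then at 3.96, 4.07 and 6.98 TPM. The order *Dmpk*, *Dmwd*, *Six5* held in every library, and neighbours in it did not overlap: the lowest *Dmpk* value exceeded the highest *Dmwd* value, and likewise for *Dmwd* and *Six5*.

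By mean TPM, *Dmpk* ranked 482 among the 19005 genes tested, *Dmwd* 4143 and *Six5* 10920. *Dmpk* stood 7.08 to 9.25 times above *Dmwd* within a library, with a mean ratio of 8.35 ± 0.798 in the normal group and 7.11 ± 0.0496 in the DM1 group. *Dmwd* stood 5.57 to 8.65 times above *Six5*.

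Whether the genes moved relative to each other was tested on their log2 ratios within each library, with an exact two-sided permutation test that cannot go below 0.1 for 3 against 3 libraries. On the CPM scale, the log2 ratio of *Dmpk* to *Dmwd* differed by −0.12, DM1 against normal (exact p = 0.7, adjusted over the 3 pairs 0.7). Without normal library 1 that difference was 0.018. The ratio of *Six5* to *Dmpk* differed by 0.32 (exact p = 0.3, adjusted 0.6) and that of *Six5* to *Dmwd* by 0.20 (exact p = 0.4, adjusted 0.6). Single libraries moved both: *Six5* to *Dmpk* was 0.20 without normal library 1 and 0.49 without normal library 2, and *Six5* to *Dmwd* was 0.063 without normal library 3, 0.11 without DM1 library 3 and 0.32 without normal library 2.

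On the TPM scale, the log2 ratio of *Dmpk* to *Dmwd* was 3.21, 3.01 and 2.95 in the normal libraries and 2.82, 2.84 and 2.82 in the DM1 libraries. Here the groups did not overlap, and the difference of −0.23 reached the smallest p possible (exact p = 0.1, adjusted 0.3). Normal library 1, at 3.21, lay furthest from the DM1 libraries and widened that difference. The scales differ in transcript length, by which TPM divides and counts do not.

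The mean transcript length behind each value was recovered from counts and FPKM, a measure chosen after the values had been seen. For *Dmpk* it was 1755, 1541 and 1546 bases in the normal libraries and 1732, 1747 and 1698 bases in the DM1 libraries. Normal libraries 2 and 3 thus stood apart at shorter lengths, and normal library 1 lay with the DM1 group. The means were 1614 ± 122 and 1726 ± 24.8 bases, a difference of 112 bases (exact permutation p = 0.4).

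*Dmwd* lengths ran from 2208 to 2282 bases with no such gap, and *Six5*, with 1 annotated transcript, stayed at about 3009 bases. GENCODE M21 lists 18 *Dmpk* transcripts of 544 to 2850 bases, but the deposited coverage corresponds to about 5408 exonic bases against 4330 in that annotation. The transcript set behind these lengths was therefore a different one, and the lengths cannot be assigned to named isoforms. On log2(TPM + 1) with limma, the *Dmpk* log2 fold change was −0.26 (adjusted p = 0.397) in place of −0.05 on counts. Other genes moved down with this change of scale too: *Dmwd* went from 0.09 to −0.032 and *Six5* from 0.30 to 0.14. The median of all genes went from 0.02 to −0.06. The part of transcript length in the *Dmpk* shift was not tested.

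**Figure D2:**
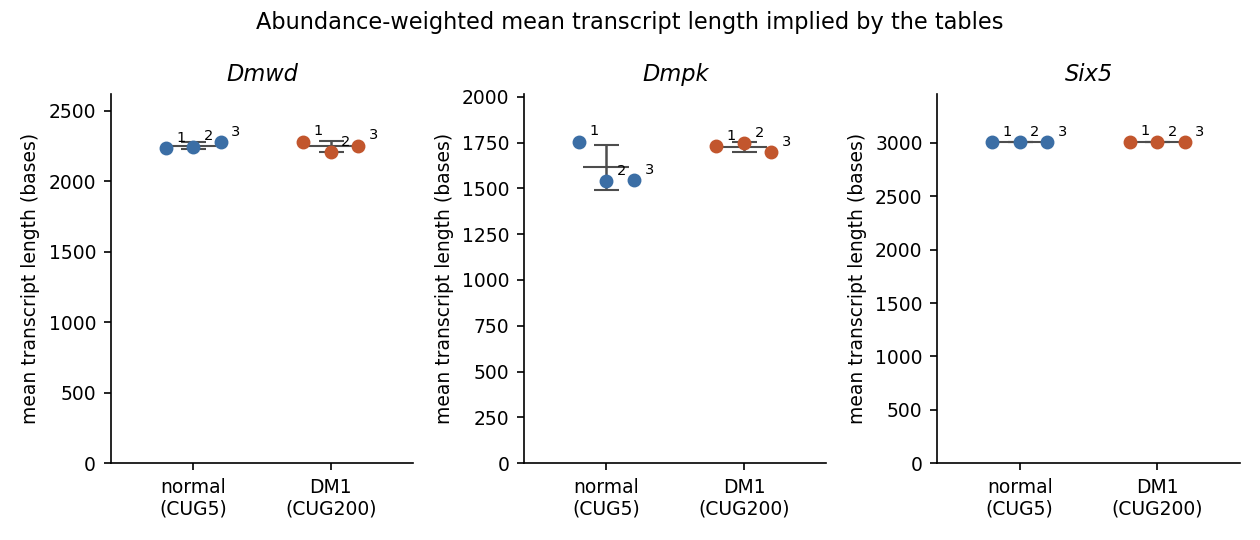
Abundance-weighted mean transcript length in bases (linear axes from 0) implied by the deposited values for *Dmwd*, *Dmpk* and *Six5*, 1 point per library with its replicate number. Lines and bars are the mean ± 1 SD (n = 3). *Dmpk* in normal libraries 2 and 3 lies near 1541 to 1546 bases, below the other 4 libraries.

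Among its kinase family, *Dmpk* was the most abundant member in these cells. Its mean of 242 TPM over all libraries was 2.79 times that of *Rock2* (86.7 TPM), and its lowest library (177 TPM) exceeded the highest of *Rock2* (100.2 TPM). The genes for the other kinases, *Stk38*, *Cdc42bpb*, *Cdc42bpa*, *Rock1*, *Stk38l*, *Cit*, *Lats1*, *Lats2* and *Cdc42bpg*, had means from 65.3 down to 3.91 TPM. The *Lats1* mean includes a value of 0 in DM1 library 1, against 8.51 to 11.3 TPM in the other libraries.

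Of the 10 other kinases, 1 rose and 1 fell, near the 7.13% and 8.73% over all genes, with a median log2 fold change of −0.08 against 0.02 over all genes tested. *Cit*, which encodes the citron kinase of cytokinesis, rose from 36.4 ± 6.37 to 71.1 ± 8.05 CPM (log2 fold change 0.97, SE 0.141, edgeR adjusted p = 0.00447). *Rock1*, which encodes a kinase of the actomyosin cytoskeleton, fell from 92.7 ± 4.16 to 73.3 ± 7.44 CPM (log2 fold change −0.34, SE 0.0944, adjusted p = 0.0430). That call was lost without any of normal libraries 1, 2 and 3 or DM1 library 2 (adjusted p up to 0.170). With limma on log2(TPM + 1) and log2(TPM + 0.1) it was lost as well (adjusted p = 0.0650 and 0.0648). *Cdc42bpa*, which encodes the close relative MRCKα, had a log2 fold change of −0.02 (adjusted p = 0.931).

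Of 8 partners and substrates of DMPK, 2 fell and 0 rose (median log2 fold change −0.20, with 8.73% of all genes tested lower). *Srf*, a transcription factor of muscle and growth genes, fell from 28.96 ± 0.810 to 20.97 ± 3.88 CPM (log2 fold change −0.47, adjusted p = 0.0462 by edgeR). This call held without DM1 library 3 but was lost without any other library (adjusted p up to 0.154). With limma on log2(TPM + 1) and log2(TPM + 0.1) it was lost as well (adjusted p = 0.350 and 0.356).

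Within the sine oculis homeobox family, *Six4* had a mean of 19.7 TPM against 4.68 TPM for *Six5*, and their ranges did not overlap. *Six2*, *Six3* and *Six6* were at or near 0, with means of at most 0.0590 TPM. *Eya1*, a coactivator of these factors, fell from 14.4 ± 1.59 to 8.41 ± 1.32 CPM (log2 fold change −0.78, edgeR adjusted p = 0.0114). The *Eya1* call was lost without normal library 3 (adjusted p = 0.0587) or DM1 library 2 (adjusted p = 0.0533). With limma on log2(TPM + 1) and log2(TPM + 0.1) it was lost as well (adjusted p = 0.0648 and 0.0631). *Six4* had −0.25 (adjusted p = 0.117), and passed without DM1 library 3 (−0.32, adjusted p = 0.0426).

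In all, 5 of 11 listed sine oculis homeobox, EYA and DACH genes could be tested, of which 2 fell and 0 rose (median log2 fold change −0.25), while 8.73% of all genes tested were lower. Of the 4 tested target genes of these factors, 3 fell and 0 rose (median −0.71, with 8.73% of all genes tested lower), among them *Igfbp5*, an IGF-binding protein gene, by 1.03 on the log2 scale (adjusted p = 0.00254), and *Myog*, the differentiation factor myogenin, by 0.65 (adjusted p = 0.00227). *Tnnc1*, slow troponin C, had a log2 fold change of −0.04 (adjusted p = 0.830). *Myog* also stands in the myotube list below.

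*Dmwd* was compared with genes of the WDR20 and USP12/USP46 deubiquitinase complexes, its closest relatives by sequence and their partners. *Wdr48* had the highest mean, 34.1 TPM, next to 31.2 TPM for *Dmwd*, and their ranges overlapped. Of 5 such partner genes tested, 0 rose and 0 fell (median log2 fold change −0.23), against 7.13% and 8.73% of all genes tested, a difference too small to read with 5 genes. *Wdr20*, the paralogue of *Dmwd*, had a log2 fold change of 0.05 (adjusted p = 0.802), which was −0.016 on the TPM scale.

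Markers of differentiated muscle differed strongly between the same libraries, a difference that was known from an earlier look at these data. Of 24 skeletal myotube markers, 19 fell and 0 rose (median log2 fold change −0.67), or 79.2% lower against 8.73% of all genes tested. The smallest p-values were those of *Myh8*, perinatal myosin (log2 fold change −2.90, adjusted p = 7.65e-05), *Ckm*, muscle creatine kinase (−0.84, adjusted p = 0.00159), and *Actn2*, a Z-disc protein gene (−1.22, adjusted p = 0.00211). Their summed level was 18619 to 20133 CPM in the normal group and 11554 to 13525 CPM in the DM1 group, and none of the markers was at 0.

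Of 13 reserve cell and myoblast markers tested, 2 rose and 3 fell (median log2 fold change −0.26), or 15.4% and 23.1% against 7.13% and 8.73% of all genes tested. *Cd34* (0.97, adjusted p = 0.00305) and *Id2* (0.41, adjusted p = 0.0304) rose, while the Notch pathway genes *Heyl* (−1.61, adjusted p = 0.00109), *Notch1* (−0.64, adjusted p = 0.00506) and *Hes1* (−0.67, adjusted p = 0.0143) fell. The calls of *Id2* and *Hes1* were each lost in at least 1 alternative. The summed level of the list was 1436 to 1457 CPM in the normal group and 1282 to 1400 CPM in the DM1 group, with *Chrdl2* at 0.

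Of 8 fibroblast markers tested, 4 rose and 0 fell (median log2 fold change 0.38, with 7.13% of all genes tested higher), led by the matrix genes *Col1a1* (1.06, adjusted p = 9.16e-04), *Dpt* (1.08, adjusted p = 0.00304) and *Lum* (0.81, adjusted p = 0.0100). Their summed level was 3515 to 3913 CPM in the normal group and 4414 to 4893 CPM in the DM1 group, with *Tcf21* at 0. Most of that sum was *Col3a1*, at 2383 to 2787 CPM in the normal group and 2753 to 3189 CPM in the DM1 group. *Col3a1* was not called (0.20, edgeR adjusted p = 0.197). The lowest log2 fold change of the list was that of *Fap*, also not called (−1.08, edgeR adjusted p = 0.188). Of 7 neuronal markers, 3 were tested, of which *Stmn2* rose (0.44, adjusted p = 0.0140) and *Nefl* fell (−0.66, adjusted p = 0.00824). Over all genes tested, 7.13% were higher and 8.73% lower, shares that 3 genes cannot be set against closely. The *Stmn2* call was lost in at least 1 alternative. The neuronal marker *Rbfox3*, not tested, was at 0. Of 8 adipocyte markers, 6 were at 0 and the 1 that could be tested was not called. The part of these cell type markers in the levels of *Dmwd*, *Dmpk* and *Six5* was not tested.

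**Figure D3:**
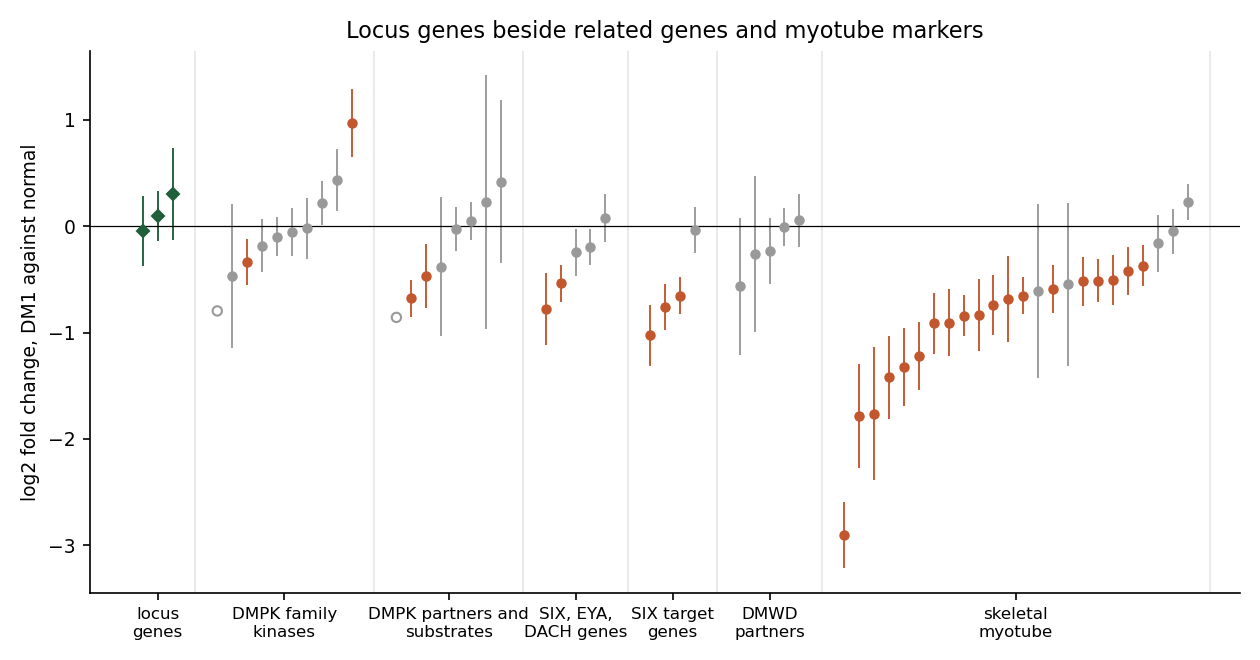
Log2 fold change (DM1 against normal) of the 3 locus genes (diamonds) and of related genes and myotube markers (circles), sorted within each list. Bars are 95% confidence intervals, and orange circles passed an adjusted p of 0.05. Open circles are *Lats1* and *Pln*, whose intervals were wider than 4. *Lats1* had 0 counts in DM1 library 1, against 2654 to 3643 in the other libraries. The intervals of the locus genes include 0, with *Six5* at 0.30, while 19 of the 24 myotube markers fell.

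The surrounding chromosome was examined next, by position and not by value. Lying wholly within 100 kb of the locus were 16 other genes, of which 11 were tested, with a median log2 fold change of −0.02. Of these, 1 rose and 0 fell, against 7.13% and 8.73% over all genes tested. *Snrpd2*, which encodes a core protein of spliceosomal snRNPs and starts 65.9 kb downstream of the *Dmpk* start, rose from 55.5 ± 4.72 to 76.8 ± 5.62 CPM (log2 fold change 0.47, SE 0.0944, edgeR adjusted p = 0.0137). The call was lost without normal library 1 or 2 or DM1 library 2 (adjusted p up to 0.0642). With limma on log2(TPM + 1) and log2(TPM + 0.1) it was lost as well (adjusted p = 0.0877 and 0.0883).

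The other protein-coding neighbours tested were not called. *Irf2bp1* (−0.22), *Qpctl* (−0.21), *Fbxo46* (−0.20) and *Mypop* (−0.02) had negative log2 fold changes and *Foxa3* (0.23), *Sympk* (0.10) and *Gipr* (0.10) positive ones, with adjusted p from 0.316 to 0.957. The sign turned in at least 1 alternative analysis for *Mypop*, *Sympk* and *Gipr*. The gene for the miRNA *Mir3100*, which lies within the span of *Dmpk*, was at 1.54 ± 0.281 CPM in the normal group and 1.22 ± 0.109 CPM in the DM1 group (log2 fold change −0.33, adjusted p = 0.395). Its reads cannot be told apart from those of *Dmpk* pre-mRNA.

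Wholly within 500 kb, 41 of 72 genes were tested, of which 3 rose and 3 fell, shares close to the 7.13% and 8.73% over all genes tested. The counts are therefore no result about the region. Besides *Snrpd2*, *Trappc6a*, a trafficking complex gene, rose (log2 fold change 0.61, adjusted p = 0.0171), as did *Nkpd1* (2.42, adjusted p = 0.0326), although it stood at only 0.0903 and 0.496 CPM. *Ckm*, the muscle creatine kinase gene 321 kb downstream, fell (−0.84, adjusted p = 0.00159), as did *Rtn2*, a reticulon gene (−0.61, adjusted p = 0.00304), and *Opa3*, a mitochondrial protein gene (−0.37, adjusted p = 0.0358). The wider window was not part of the naming rule, and these genes were named after their values had been seen.

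**Figure D4:**
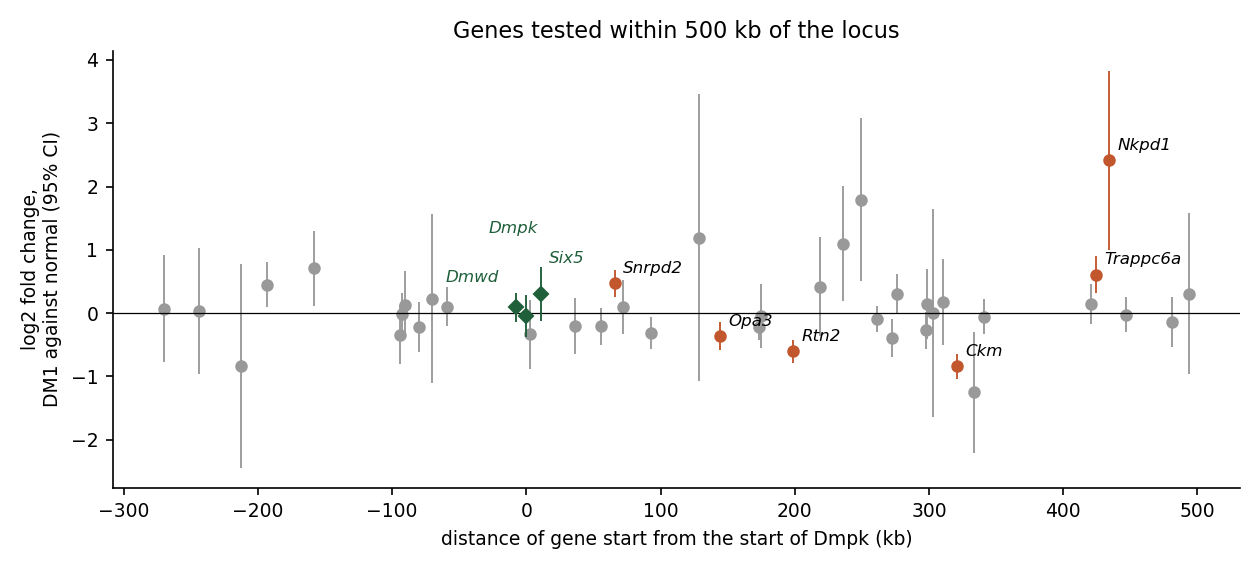
Log2 fold change (DM1 against normal, 95% confidence interval) of the genes tested that lie wholly within 500 kb, against the distance of each gene start from the *Dmpk* start in kb. Diamonds are *Dmwd*, *Dmpk* and *Six5*, and labelled circles are the 6 genes past an adjusted p of 0.05. The intervals of the locus genes include 0, with *Six5* at 0.30, and *Snrpd2* is the nearest labelled gene.

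The likeness of profiles was measured as the root mean square difference of log2 CPM, each gene centred on its mean, over the 6 libraries and 14020 genes with a mean of at least 1 CPM. Closest to *Dmpk* were *Maml2* (0.0465), *5031439G07Rik* (0.0549) and *Enpp5* (0.0559). Closest to *Six5* were *Hoxa11os* (0.0379), *Gm43375* (0.0543) and *Zfp414* (0.0619), and closest to *Dmwd* were *Ip6k3* (0.0115), *Odf2* (0.0213) and *Pacs1* (0.0241). Among the locus genes themselves, *Dmpk* and *Dmwd* differed by 0.160, which placed *Dmwd* at rank 798 of the 14020 genes by likeness to *Dmpk* and *Dmpk* at rank 2967 by likeness to *Dmwd*. *Six5* and *Dmwd* differed by 0.203 (*Dmwd* at rank 821 by likeness to *Six5*, and *Six5* at rank 5126 by likeness to *Dmwd*), and *Dmpk* and *Six5* by 0.268 (*Six5* at rank 6634 by likeness to *Dmpk*, and *Dmpk* at rank 3080 by likeness to *Six5*). These values are a description over 6 libraries only.

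The spread within groups sets what could be seen. The within-group SD of log2 CPM was 0.220 for *Dmpk*, 0.275 for *Six5* and 0.126 for *Dmwd*. These stand at percentiles 53.2, 61.3 and 26.8 of all genes tested.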

How the data were processed

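RNA-seq of C2C12 myoblasts at differentiation day 4 was analysed in 3 normal and 3 DM1 libraries, grouped by the labels, with 61707889 to 80957325 counts each. Per the submitters' processing notes and methods, the authors used Trim Galore for trimming, HISAT2 for alignment to GRCm38, and StringTie for abundances (versions not given in the sources used here). The authors deposited raw counts per gene in a matrix, and coverage, FPKM and TPM per gene in a table for each library. Gene tables were joined by gene ID. StringTie-derived counts are coverage times length over 75 bases, so a fragment can give more than 1 count and counts are not independent molecules. Intervals therefore rest on the spread between libraries.

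Counts were tested with edgeR 4.0.16 (R 4.3.3): filterByExpr (minimum count 10), TMM scaling, robust quasi-likelihood test, Benjamini-Hochberg adjustment over 19005 genes. TMM-scaled CPM describe levels of a gene, and TPM those between genes. Log2 ratios and transcript lengths were compared by exact two-sided permutation (scipy 1.17.1). The pipeline was tested on simulated data. Alternatives were DESeq2 1.42.0, other scalings and filters, counts divided by 4, limma 3.58.1 on log2(TPM + 1) and log2(TPM + 0.1), a replicate block, and leaving out each library. Leaving out both libraries under 10% mitochondrial counts was added after the data had been seen.

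The members and lists were chosen with earlier results of these data known. Named were the members, tested protein-coding neighbours within 100 kb, up to 3 called genes per direction of each list, the 3 most similar profiles per member, and paralogues. *Aldoa* was left out because 2 genes carry that name. Mean transcript length was computed from counts and FPKM, calibrated on genes with 1 transcript. Promoters came from RefSeq (GRCm38.p6) and transcripts from GENCODE M21, in which 54899 of 55421 genes had the same span. Protein sequences were not analysed here. Some genes that the naming rule selected are not reported here. Same-numbered libraries were not treated as pairs.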

Additional observations from a re-analysis of the deposited data

How the results depend on the processing

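None of the 3 locus genes was called in any of 17 alternatives. The adjusted p ranged from 0.391 to 0.915 for *Dmpk*, 0.251 to 0.762 for *Six5* and 0.288 to 0.992 for *Dmwd*. Leaving out each library gave log2 fold changes from −0.13 to 0.12 for *Dmpk*, 0.09 to 0.41 for *Six5* and −0.011 to 0.17 for *Dmwd*. *Dmpk* turned positive without normal library 1 (0.12), without DM1 library 1 (0.041) and without both low-mitochondrial libraries (0.040), and *Dmwd* turned to −0.032 and −0.033 on the TPM scales and to −0.011 without DM1 library 3; the cause was not tested. The group difference in the *Dmpk* to *Dmwd* log2 ratio of CPM was −0.22 to 0.018 when each library was left out, and −0.23 on TPM. The TPM scales moved the median of all genes from 0.02 to −0.06 and −0.09. They called fewer genes: 427 and 434 higher, and 816 and 850 lower. Past both cutoffs were 140 with log2(TPM + 1), against 414 on counts. Leaving out 1 library gave 543 to 1678 higher, 485 to 2111 lower and 273 to 438 past both cutoffs, against 1356, 1660 and 414. The fewest came without normal library 3.

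Among the other named genes, with signs that turned but no call, *Cdc42bpa* went to 0.019 on both TPM scales and to 0.068 and 0.088 without normal or DM1 library 3, *Wdr20* to −0.016 on both TPM scales and −0.032 without DM1 library 3 (up to 0.13 without DM1 library 1), *Sympk* to −0.044 and −0.047 on the TPM scales and −0.059 without DM1 library 3 (up to 0.20 without normal library 3), *Mypop* to 0.026 and 0.096 without normal library 3 or DM1 library 1, and *Gipr* to −0.075 without normal library 2 (up to 0.24 without normal library 1). Among the named genes for which alternatives were run, calls of *Rock1*, *Srf*, *Snrpd2*, *Eya1*, *Id2*, *Hes1* and *Stmn2* were lost in at least 1 alternative. No alternatives were run for *Trappc6a*, *Nkpd1*, *Rtn2* and *Opa3*, so the stability of their calls was not tested. The replicate numbers are shared labels only: deviations of same-numbered libraries correlated at 0.0675, 0.0222 and 0.0263. With the replicate block the log2 fold change was −0.04 for *Dmpk* (adjusted p = 0.910), 0.29 for *Six5* (0.430) and 0.09 for *Dmwd* (0.591). That fit called 1326 genes higher and 1497 lower. Among the named genes for which alternatives were run, only *Rock1* lost its call with the block (adjusted p = 0.0637).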
